A study of Mus musculus with 4 samples.

Results

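The Hippo pathway genes Fat4, Dchs1, Wwc1, Lats1, Lats2, Yap1, Wwtr1, Tead1 and Tead3 were described for binding of the transcription factor WT1 in the developing mouse kidney. These 9 genes were taken by name out of 21887 protein-coding genes, and each was given every peak whose midpoint lay in the gene or within 50 kb of it (mm10). WT1-bound DNA was precipitated and sequenced (ChIP-seq) from kidneys dissected out of wild-type embryos at E18.5, of a mixed background from C57Bl6 and B6DBA/F1 mice. There were 2 samples precipitated with the WT1 antibody C-19 and 2 with IgG as a negative control. The values used were the peak lists of both WT1 samples and a table of the regions common to them; IgG data were not analysed here. The whole organ was used, so a peak cannot be assigned to a cell type, and the labels do not say how many animals went into a sample.

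The Hippo pathway restrains growth through a cascade of protein kinases. The cadherins FAT4 and DCHS1 bind each other between neighbouring cells, and the scaffold KIBRA (Wwc1) helps to switch on the kinases LATS1 and LATS2. These kinases phosphorylate the coactivators YAP (Yap1) and TAZ (Wwtr1), which keeps them out of the nucleus, where they otherwise act through DNA-binding TEAD proteins such as TEAD1 and TEAD3. In the mouse kidney, Fat4 and Dchs1 are known for signals from the stroma that balance renewal and differentiation of nephron progenitors, and Yap1 for its roles in nephron formation and in podocytes, which form the outer layer of the glomerular filter.

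Of the 9 genes, 7 had at least 1 reproducible WT1 region and 2, Yap1 and Lats1, had none. A region found in both samples was called reproducible when its irreproducible discovery rate (IDR), the authors' value for the region, was 0.05 or lower. By the same rule 26.1% of all protein-coding genes had a reproducible region. The 9 genes are longer than most (median 72.6 kb, against 17.2 kb), and among genes in their range of length, 19.1 to 227 kb, the percentage was 29.8%. For the 9 genes it was 77.8%, which is a description, since they were picked with earlier results of these data known. When the flanks were left out and regions inside the gene alone were counted, 4 of the 9 had one, against 7.95% of all protein-coding genes. That count depends on gene length, and no percentage among genes of like length was made for it. Per Mb of gene, the 9 genes held 4.78 reproducible regions (exact interval 1.3 to 12.2), against 2.28 for all protein-coding genes. All 9 had at least 1 region of the overlap table when the IDR was disregarded, against 57% of all protein-coding genes. With 2 samples of a single group there is no test between samples.

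The 9 windows, 1.74 Mb in all, held 10 of the 4411 reproducible regions of the genome, or 5.76 per Mb. Merged windows of all protein-coding genes held 2.20 per Mb. The regions lay in 2 kinds of place. At Wwtr1, Tead3, Wwc1 and Dchs1 they lay within 1 kb of an end of the gene, which was so for 4.13% of all protein-coding genes. At Fat4, Lats2 and Tead1 all of them were more than 5 kb from either end, and no share over all genes was made for this. The 2 kinds are by ends of the named gene alone. The Lats2 region was 2.78 kb from an inner start of Lats2, and the Dchs1 region was nearer to an end of Tpp1.

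**Figure D1:**
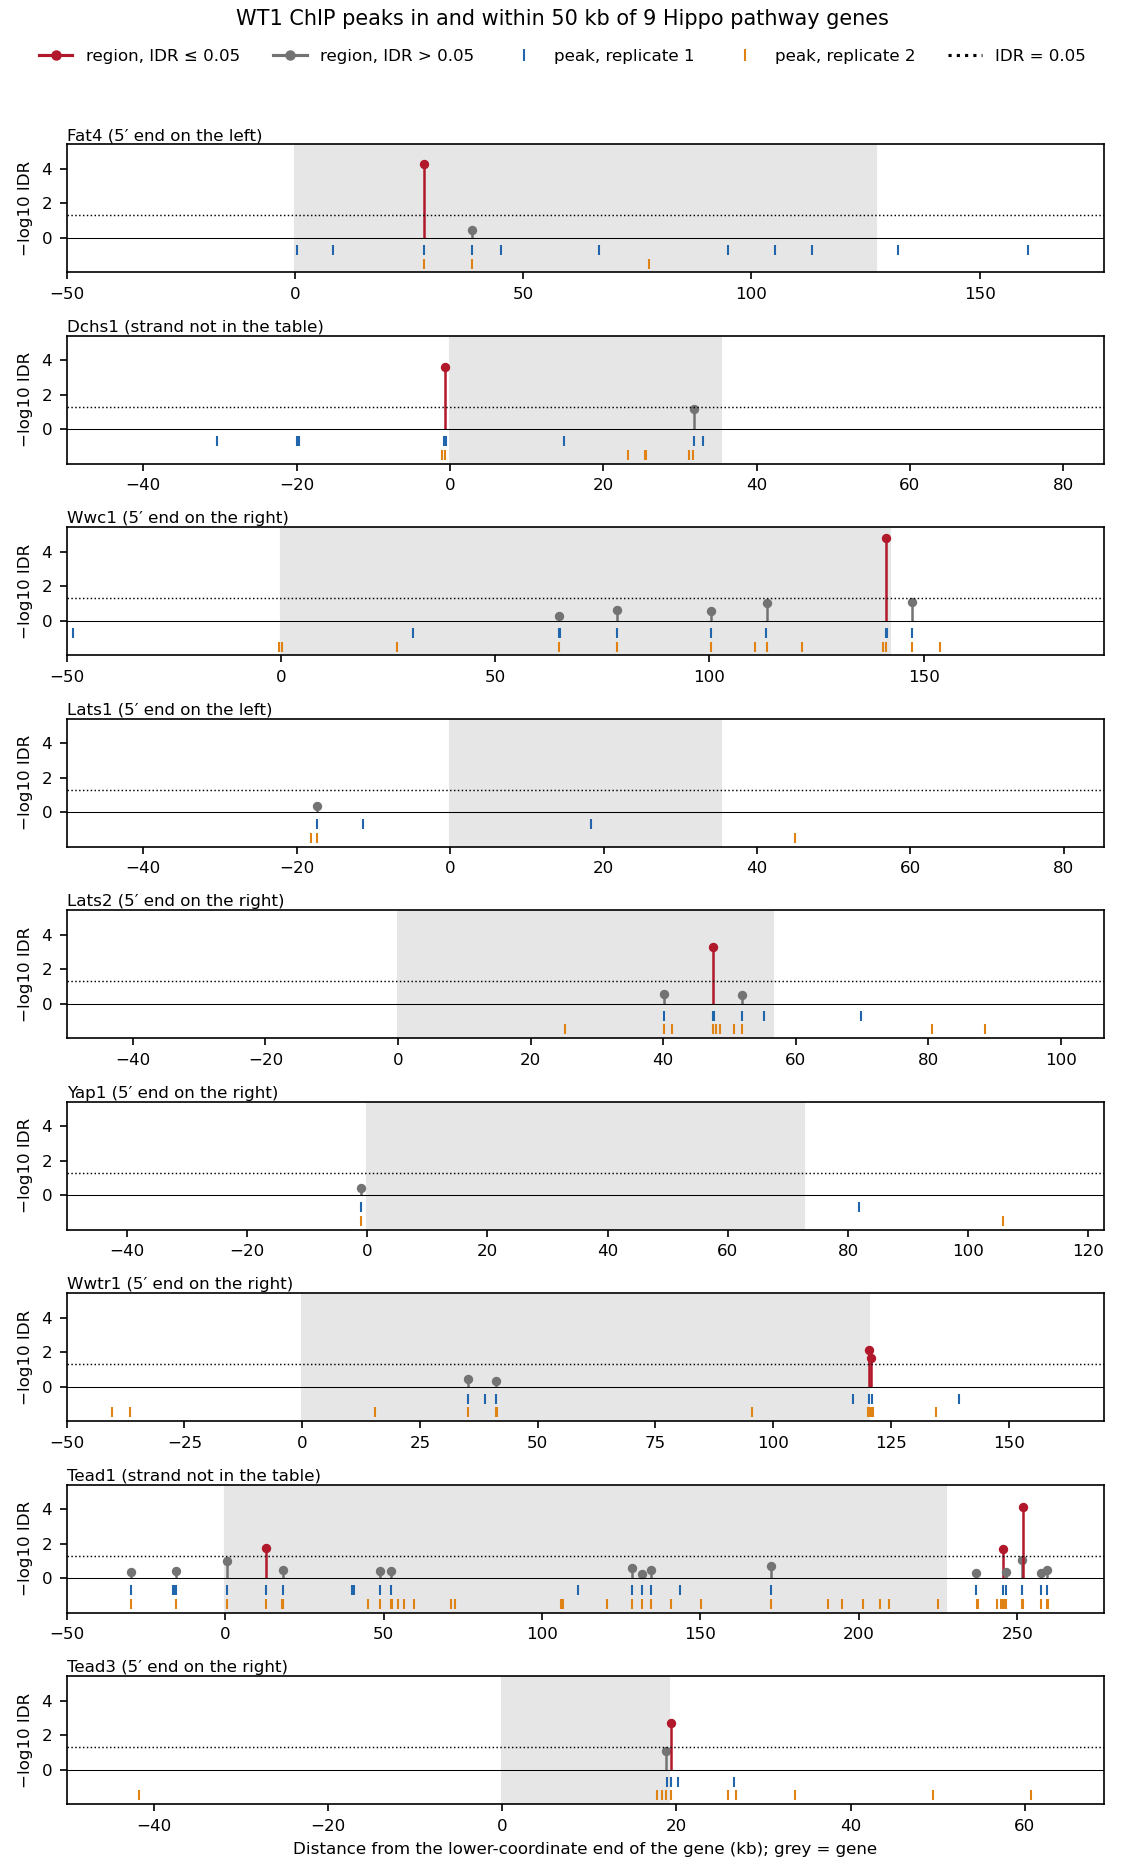
WT1 peaks along the 9 genes and 50 kb on each side, by distance from the lower-coordinate end of the gene in kb. Stems show regions found in both replicates by −log10 of their IDR, red at or below 0.05, and ticks beneath show the peaks of replicates 1 and 2. Red stems stand in 7 of the 9 panels, and Yap1 and Lats1 each have 1 grey stem alone.

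At 3 promoters a reproducible region of these windows covered sequence just before a transcription start, and those sequences are shown because they are the DNA under or beside the WT1 signal. They are the 250 bases before the start, 5′ to 3′ on the strand of the gene, from RefSeq (GRCm38.p6, the assembly behind mm10). They belong to Wwtr1 (chr3:57575911-57576160, minus strand), to Tead3 (chr17:28350806-28351055, minus strand) and to Tpp1, whose start lies next to Dchs1 (chr7:105752236-105752485, minus strand). Capitals mark a match to GNGTGGGNG on either strand, a pattern of the kind that the zinc fingers of WT1 are known to bind.
Wwtr1: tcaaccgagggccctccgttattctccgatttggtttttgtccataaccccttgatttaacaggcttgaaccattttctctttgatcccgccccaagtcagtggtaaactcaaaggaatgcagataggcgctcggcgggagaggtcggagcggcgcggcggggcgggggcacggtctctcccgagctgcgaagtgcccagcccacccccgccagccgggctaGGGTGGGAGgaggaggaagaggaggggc
Tead3: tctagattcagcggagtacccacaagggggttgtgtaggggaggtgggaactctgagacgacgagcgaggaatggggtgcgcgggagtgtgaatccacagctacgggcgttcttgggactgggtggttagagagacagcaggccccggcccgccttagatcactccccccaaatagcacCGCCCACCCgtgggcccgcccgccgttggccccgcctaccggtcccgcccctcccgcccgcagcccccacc
Tpp1: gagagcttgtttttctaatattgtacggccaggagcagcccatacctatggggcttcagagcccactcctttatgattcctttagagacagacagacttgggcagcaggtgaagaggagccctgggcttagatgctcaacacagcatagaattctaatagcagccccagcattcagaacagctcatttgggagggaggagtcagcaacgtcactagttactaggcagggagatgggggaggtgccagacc

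All 250 bases of Wwtr1 and of Tpp1 lay inside a reproducible region, while at Tead3 bases 1 to 100 did. The match before Wwtr1 lay in the region, 28 to 20 bases before the start. The match before Tead3, on the opposite strand and 71 to 63 bases before the start, lay outside it, and Tpp1 had no match. Of 21238 such windows before protein-coding genes, 13.8% held the pattern, and of the 490 that a reproducible region overlapped, 31.8% did. A second, narrower form, GCGTGGGNG, whose matches are all matches of the first as well, was in none of the 3 sequences, in 2.10% of all windows and in 12.9% of the 490. A repeat, TCCTCCTCC, had 2 overlapping matches before Wwtr1 on the opposite strand, 23 to 12 bases before the start, which share bases with the capitals; 2.60% of all windows and 9.18% of the 490 held it. A match of letters is a description, not a site of binding. Of the 9 genes, 7 had a start in the RefSeq table, and Tead1 and Dchs1 did not. The pattern was also found before Fat4 and before the other starts of Tead3, and not before Yap1, Lats1, Lats2 or Wwc1.

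The cadherin genes came first in the order of the pathway. Fat4, which encodes a giant atypical cadherin (chromosome 3, 38884667 to 39011992), held 1 reproducible region at 38912635 to 38913132, inside the gene and 25.9 kb downstream of the listed start. Its IDR was 5.18e-05, and the peaks beneath it had significance values of 5.24e-11 in replicate 1 and 3.08e-19 in replicate 2. The significance value is the authors' own value for a peak, read as a p-value or q-value. These peaks ranked 1182 of 53132 and 1341 of 57641 in their lists, so each was in the first 2.33% or better of its replicate. A second region inside the gene, 38.8 kb from its lower-coordinate end, had an IDR of 0.338 and did not pass.

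The replicates differed over the rest of Fat4. Replicate 1 had 11 peaks in the window and replicate 2 had 3, and 9 of the 11 had no counterpart. Over the whole list of replicate 1, 34.1% of peaks had a counterpart, so having none is the common case. Of the 9 genes, 5 had more peaks in replicate 2, 2 had more in replicate 1 (Fat4 and Dchs1) and 2 had as many in each. No protein-coding gene had an end within 10 kb of the reproducible region, and the nearest, that of Fat4 itself, was 28.2 kb away.

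Dchs1, the gene of the cadherin partner of FAT4 (chromosome 7, 105752989 to 105788355), was counted through a region just outside it. The region, at 105752109 to 105752541, had an IDR of 2.55e-04, with values of 8.87e-08 in replicate 1 and 2.95e-25 in replicate 2. Its midpoint was 664 bp from the lower-coordinate end of Dchs1 but 43 bp from an end of Tpp1, which encodes a lysosomal peptidase, and it covered the whole promoter sequence of Tpp1 shown above. The ends of Taf10 and Ilk were 7.95 and 9.4 kb away. When a region was counted only for a gene that it lay in or whose end was nearest, Dchs1 had none, 6 of the 9 genes had one, and the percentage over all protein-coding genes was 12.7%. Inside Dchs1, 3.56 kb from its higher-coordinate end, a second region (105784602 to 105784980) had an IDR of 0.0726. It is the region nearest to the threshold among those of the 9 genes that did not pass.

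Wwc1, which encodes the scaffold KIBRA (chromosome 11, 35838399 to 35980527, minus strand), had the lowest IDR of the 9 genes, 1.59e-05. The region (35979166 to 35979919) was also the widest at 754 bp. It lay inside the gene with its midpoint 985 bp downstream of the start, and no other protein-coding gene had an end within 10 kb. The strongest peak beneath it had a value of 6.49e-15 in replicate 1 (35979337 to 35979750) and 2.88e-34 in replicate 2 (35979166 to 35979917). It ranked 739 and 555 in those lists. A second peak of replicate 1 in the same region had a value of 0.00196. The 250 bases before the start of Wwc1 were not overlapped by any region of the table.

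Of the other regions of Wwc1, 5 were found in both replicates and did not pass. One lay 5.22 kb upstream of the start (IDR 0.0783), with values of 0.00196 in replicate 1 and 5.83e-04 in replicate 2. The other 4 were spread inside the gene, 28.8 to 77.3 kb downstream of the start, with IDRs of 0.0895 to 0.537.

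Of the pair of LATS kinase genes, Lats2 had a reproducible region and Lats1 had none. Lats2 (chromosome 14, 57689662 to 57746212, minus strand) held 1 reproducible region at 57737008 to 57737385, with an IDR of 5.53e-04. The values were 8.87e-12 in replicate 1 and 5.58e-21 in replicate 2, ranks of 1062 and 1184. It lay inside the gene, 9.02 kb from its higher-coordinate end. Of the starts listed for Lats2, the nearest was the inner one, with the region 2.78 kb upstream of it. Gm52140, another protein-coding gene of the table, had an end 1.39 kb away. Further regions at 4.64 and 16.4 kb from the same end of Lats2 had IDRs of 0.337 and 0.275.

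Some strong peaks at Lats2 were seen in a single replicate. Replicate 2 had a peak at 57740048 to 57740565 with a value of 1.16e-06, the lowest among the 66 unshared replicate 2 peaks of the 9 windows. Replicate 1 had a peak at 57744747 to 57744956, inside the gene and 1.36 kb from its higher-coordinate end, with a value of 1.17e-05, the lowest among its 33 unshared peaks. Neither overlapped a peak of the other replicate by even 1 bp.

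Lats1 (chromosome 10, 7681200 to 7716461) had 3 peaks in each replicate and 1 region found in both, at 7663706 to 7663909. That region was 17.4 kb upstream of Lats1 with an IDR of 0.473, and the values were 0.0314 in replicate 1 and 0.00896 in replicate 2. It overlapped the listed promoter of Pcmt1, which encodes a protein-repair methyltransferase. Inside Lats1 itself there was 1 peak, in replicate 1 alone (value 0.0136). The nearest reproducible region was 200 kb from Lats1.

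Of the coactivator genes, Wwtr1 had reproducible regions and Yap1 had none. Wwtr1, which encodes TAZ (chromosome 3, 57455644 to 57575910, minus strand), had 2 reproducible regions side by side at its 5′ end, with 50 bases between them. The region at 57575802 to 57576243 had its midpoint 112 bp upstream of the gene end and covered the promoter sequence shown above. Its IDR was 0.00790, with values of 7.47e-05 in replicate 1 and 2.05e-13 in replicate 2. The region at 57576294 to 57576608, 541 bp upstream, had an IDR of 0.0218, with values of 7.65e-04 in replicate 1 and 1.66e-12 in replicate 2. It is the region nearest to the threshold among the 10 that passed, and at an IDR of 0.01 only the region over the promoter remained.

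No other protein-coding gene had an end within 10 kb of either Wwtr1 region. Within 1 kb of the ends of Wwtr1, replicate 1 had 2 peaks and replicate 2 had 4. Regions inside the gene, 35.3 and 41.1 kb from its lower-coordinate end, had IDRs of 0.367 and 0.473.

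Yap1 (chromosome 9, 7931999 to 8004638, minus strand) had the fewest peaks of the 9 genes. Its 173 kb window held 2 peaks in each replicate, and none of them lay inside the gene. The region found in both, at 7930827 to 7931092, was 1.04 kb beyond the lower-coordinate end, which is the 3′ end of the gene. Its IDR was 0.404, with values of 0.0326 in replicate 1 and 0.0298 in replicate 2. At the 5′ end of Yap1 neither replicate had a peak within 1 kb. The nearest reproducible region on the chromosome was 5299 kb away (13303201 to 13303623, IDR 0.0125). The files hold no read counts, so the depth over Yap1 is unknown and a weak signal there cannot be told from none.

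**Figure D2:**
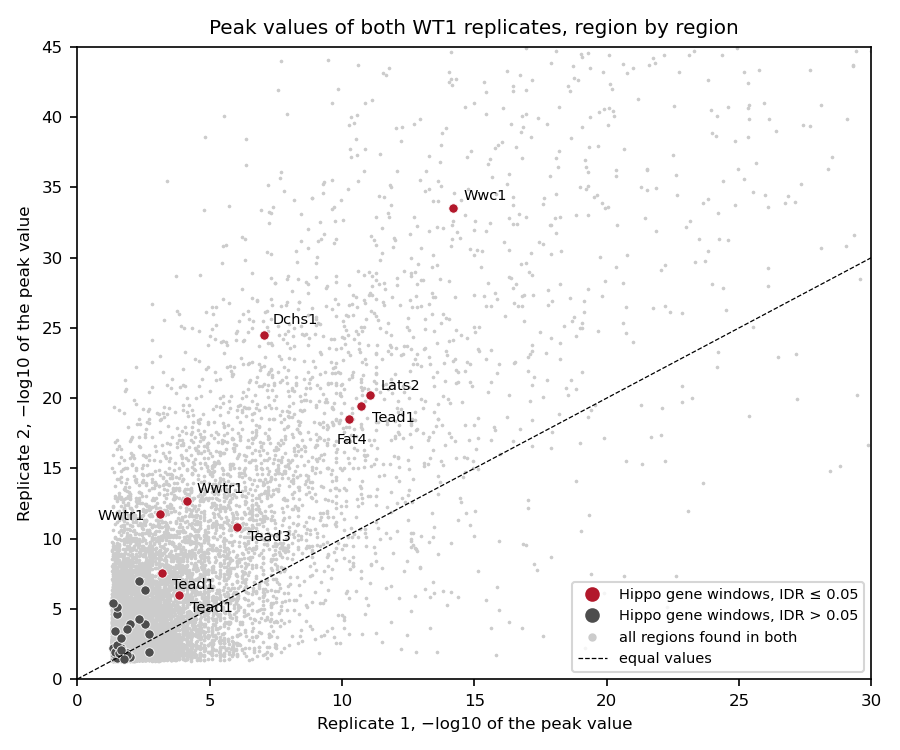
Significance values of the strongest peak of replicate 1 (horizontal) and replicate 2 (vertical) beneath each region found in both, as −log10. Red and dark points are the 39 regions of the 9 Hippo genes and pale points 16889 regions of the whole table, and another 345 with a value of 0 or beyond the axes are left out. All 10 reproducible regions of the Hippo genes lie above the dashed line of equal values. Replicate 2 had the lower value in 75.4% of all regions found in both, and the share among all reproducible regions was not counted.

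The TEAD genes encode the DNA-binding partners of YAP and TAZ. Tead3 (chromosome 17, 28331671 to 28350805, minus strand), the shortest of the 9 genes, had a reproducible region at its 5′ end (28350956 to 28351133). The midpoint was 239 bp upstream of the outermost start, and Tulp1 had an end 471 bp from it. The IDR was 0.00190, with values of 9.09e-07 in replicate 1 and 1.45e-11 in replicate 2. A second region, at 28350442 to 28350618 and 275 bp inside the gene, overlapped the sequence before the inner starts of Tead3. Its IDR was 0.0819, with values of 0.00473 in replicate 1 and 9.81e-08 in replicate 2.

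Tead1 (chromosome 7, 112679356 to 112906784) had the most peaks, also per Mb. Its window held 24 peaks of replicate 1 and 45 of replicate 2, or 73.3 and 137 per Mb, against 23.0 and 27.4 per Mb in the windows of all protein-coding genes. Of the 39 regions found in both replicates at the 9 genes, 18 belonged to Tead1, and 3 of these were reproducible. Without Tead1 the other windows held 4.97 reproducible regions per Mb. The strongest (112930866 to 112931133) had an IDR of 7.46e-05, with values of 1.89e-11 in replicate 1 and 3.51e-20 in replicate 2. It lay 24.2 kb beyond the higher-coordinate end of Tead1 and 23.0 kb from Rassf10, whose end was thus nearer. It was the region farthest from its gene among the 10.

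The others were weaker. The region at 112924790 to 112925086, 18.2 kb beyond the same end, had an IDR of 0.0203, with values of 6.55e-04 in replicate 1 and 2.64e-08 in replicate 2. The region at 112692110 to 112692519, inside the gene and 13.0 kb from its lower-coordinate end, had an IDR of 0.0172, with values of 1.39e-04 in replicate 1 and 1.11e-06 in replicate 2. Beyond the higher-coordinate end stood 7 of the 18 regions, from 9.66 to 32.0 kb, and beyond the lower-coordinate end 2. A region 701 bp inside the lower-coordinate end had an IDR of 0.105. Just outside the window, 63.8 kb from Tead1, was a further reproducible region (112615236 to 112615782, IDR 4.23e-06) that the 50 kb limit left out.

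**Figure D3:**
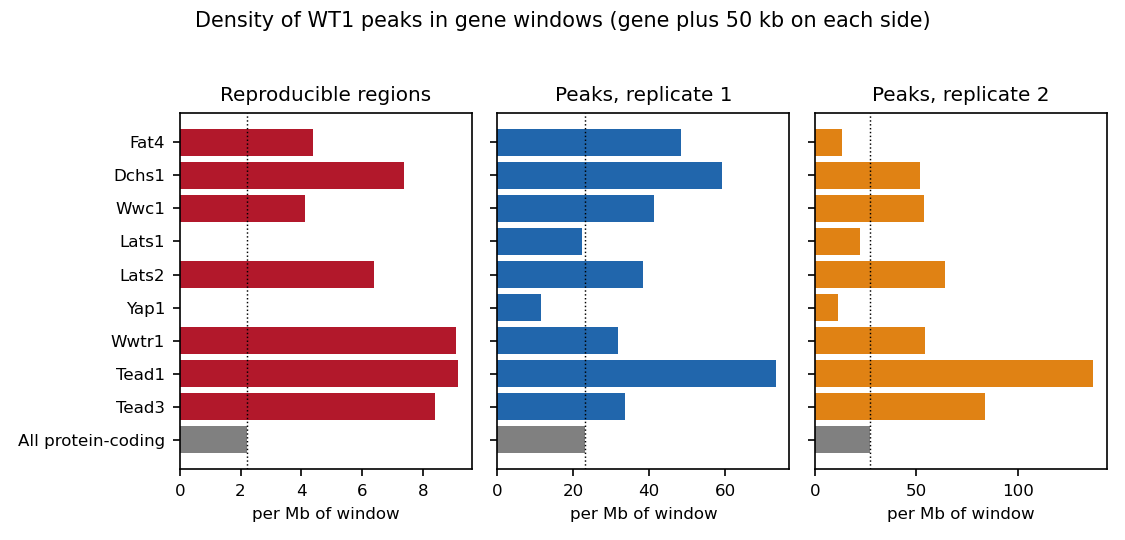
Reproducible regions, replicate 1 peaks and replicate 2 peaks per Mb of window for each of the 9 genes, with the merged windows of all protein-coding genes in grey and as a dotted line. For reproducible regions 7 of the genes are above the line at 2.20 per Mb and Lats1 and Yap1 are at 0, and Tead1 has the highest peak density in both replicates. In windows of 119 to 327 kb a single region puts a gene above that line, so the first panel repeats the count of 7 genes.

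Across the 9 windows, 42 of 75 peaks of replicate 1 overlapped a peak of replicate 2 (56.0%, exact 95% interval 44.1% to 67.5%), against 34.1% over its whole list. Of 105 peaks of replicate 2, 39 overlapped one of replicate 1 (37.1%, 27.9% to 47.1%), against 30.8%. Tead1 alone supplied 24 of the 75 peaks and 18 of the 42 shared ones in replicate 1. In replicate 2 it supplied 45 of the 105 and 18 of the 39. Shares without Tead1 were not computed, so these percentages rest in large part on 1 gene. Among peaks with a value of 0.01 or lower the shares were 73.9% against 65.7% in replicate 1 and 56.9% against 50.7% in replicate 2. Peaks of 1 window are not independent of each other, and no test of these differences was made. Shared peaks had median values of 0.0136 in replicate 1 and 4.01e-04 in replicate 2, and unshared ones had 0.0314 and 0.0156. In 34 of the 39 regions (87.2%) the value of replicate 2 was the lower, against 75.4% of the regions of the whole table. By IDR the 10 reproducible regions were among the first 4.67% to 20.5% of that table. Their median width was 394 bp, near the 372 bp of all reproducible regions, and that of the 29 that did not pass was 213 bp.

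Beyond these 9 genes, 38 other genes of the pathway were counted by the same rule, and 12 of them had a reproducible region (31.6%, 17.5% to 48.7%), near the 26.1% of all protein-coding genes. This list was also chosen with earlier results of these data known, so the interval is counting error alone. By role these were 6 of 22 upstream genes, 2 of 7 genes of the kinase core, 1 of 3 LIM-protein inhibitors of LATS and 3 of 6 nuclear partners. Ptpn14, a phosphatase that binds YAP, had 7 reproducible regions, the strongest at IDR 2.80e-06 (values 6.70e-20 in replicate 1 and 1.19e-37 in replicate 2). That one lay 6.91 kb outside Ptpn14, and Smyd2 had a nearer end at 3.11 kb. Map4k4, a kinase that can act on LATS, had 1 inside the gene at IDR 1.21e-05, and Nf2, the tumour suppressor merlin, 1 inside the gene at IDR 0.00528.

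In the kinase core, Mob1a, which encodes an activator of LATS, had a region 67 bp from an end of the gene (IDR 0.00500). Stk3, which encodes the kinase MST2, held one at 132 kb from its nearer end (IDR 0.0297), and Stk4, Sav1, Mob1b, Stk38 and Stk38l had none. Ajuba, a LIM protein, had 3 regions, the strongest 15.0 kb outside it (IDR 9.98e-05), with an end of 4931414P19Rik nearer at 9.01 kb. Among nuclear partners, Vgll4, a rival of YAP for TEAD, had 2, the stronger 14.3 kb inside the gene (IDR 0.0134). Tead2 and Tead4 had 1 each, 23.5 and 35.2 kb outside the gene (IDR 0.00262 and 0.0375) and nearer to ends of Kash5 and Tulp3. The others were Crb2, a polarity gene of podocytes (12.3 kb outside, IDR 0.0120), Llgl1 (633 bp outside, IDR 0.00596) and Taok1 (34.9 kb outside, with Git1 nearer, IDR 0.0321). The upstream cadherin genes Fat1, Fat2 and Fat3 had regions in both replicates only above the threshold, the lowest with IDRs of 0.173, 0.218 and 0.305.

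A published YAP and TAZ target signature was taken without any gene that is among the 9 or the 38 above, which left 18 genes. Of the 18, 9 had a reproducible region (50%, 26.0% to 74.0%), against 26.1% of all protein-coding genes. The median length of the 18 was 33.5 kb, against 17.2 kb, and the list was chosen with earlier results of these data known. Within 10 kb of an end of the gene the count was 3 (16.7%), against 10.2% of all protein-coding genes. Myof, a membrane-repair gene, had the lowest IDR at 8.61e-07, 12.4 kb inside the gene, and a second region. Rbms3, with 1057 kb the longest gene of this list, had 3 inside or near it (lowest IDR 5.35e-06). Axl, a receptor kinase, had 4, the strongest 26.8 kb outside the gene with Cyp2s1 nearer (IDR 1.27e-05). Dock5 had one 277 bp outside the gene (IDR 2.46e-04) and Arhgef17 had 2, the stronger inside it (IDR 3.40e-04). Foxf2 and Gadd45a had 1 each, 20.8 and 38.8 kb outside (IDR 1.40e-04 and 9.96e-04). Crim1 had 1 inside the gene, 12 kb from its end and 4.57 kb from an end of Fez2 (IDR 0.00339). Asap1 had 1 outside the gene, at 14.5 kb, with Cyrib nearer at 11.6 kb (IDR 0.00242). Ccn1 and Ankrd1, the targets most often used to read out YAP activity together with Ccn2, had 1 region each above the threshold (IDR 0.481 and 0.552), and Ccn2 had no region in the table.

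**Figure D4:**
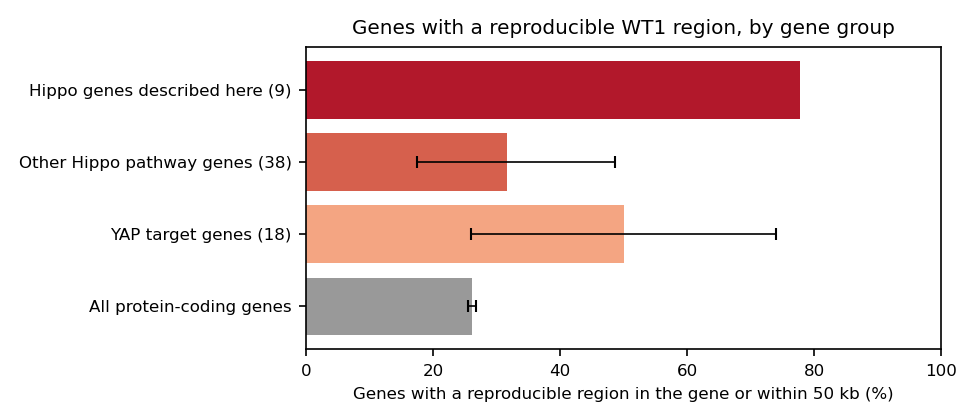
Percentage of genes with a reproducible WT1 region in the gene or within 50 kb, with exact 95% intervals over genes as lines except for the 9 genes. The 9 genes and both other lists were chosen with earlier results of these data known, so the intervals show counting error alone. The 9 Hippo genes stand at 77.8%, the other pathway genes at 31.6%, the YAP targets at 50% and all protein-coding genes at 26.1%.

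At known loci, Wt1 itself and the podocyte gene Nphs1 each had 2 reproducible regions by the same rule, while Alb of liver and the housekeeping gene Gapdh had 0. Since 26.1% of all protein-coding genes had a reproducible region, having none is the common case, and these few loci are no test of the tissue. At Gapdh 5 regions were found in both replicates without passing (lowest IDR 0.0766), and at Alb there was none. Replicate 1 held 53132 peaks and replicate 2 held 57641. The number of reads behind them is unknown.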

How the data were processed

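The authors deposited a peak list for each of the 2 WT1 samples and 1 table of 17234 regions shared by them, with positions on mm10 per the submitters' processing notes. No source used here names the aligner, the peak caller or a use of IgG reads. Column 5 of the deposited lists runs from 0 to 0.0499 and is read as a p-value or q-value with a ceiling of 0.05, and in the deposited table it is read as an IDR, a q-value-like error rate. Per the labels' protocols, the DNA was cut with restriction enzymes and amplified in 18 rounds of PCR.

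Genes came from a RefSeq table of GRCm38.p6, and peaks were placed by their midpoint, 1-based. Overlaps of at least 1 bp were found with bedtools 2.31.1, and intervals are exact (scipy 1.17.1). Counting in windows was tested on simulated data. All members, list genes with a reproducible region, up to 12 in each list, and genes with a nearer end are named. The members and lists were chosen with earlier results of these data known. Nothing was tested between samples, so results are counts beside those over all genes. Alternatives were other IDR limits, windows and overlap rules, each replicate alone and, added after seeing the data, a nearest-gene rule, genes of like length and windows without Tead1.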

Additional observations from a re-analysis of the deposited data

How the results depend on the processing

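With the peaks of replicate 1 or 2 alone, as many as there are reproducible regions, 7 of the 9 Hippo genes had a peak in each case, with 9 and 10 peaks in their windows, against 24.7% and 26.2% of all protein-coding genes. The count of genes was also 7 at IDR limits of 0.01 and 0.1 (19.6% and 30.2% of all genes) and with windows of 10 and 100 kb (13.6% and 38.1%). It was 9 with all regions of the overlap table (57%), 4 (4 regions) with the gene alone (7.95%), 5 within 10 kb of an end (10.2%) and 6 by the nearest-gene rule (12.7%). The percentages in brackets are over genes of any length. For the gene alone, the density was 4.78 reproducible regions per Mb in the 9 genes, against 2.28 in all protein-coding genes. An IDR of 0.01 left 7 of the 38 other pathway genes (18.4%), against 19.6% of all protein-coding genes. All regions of the table gave 39 in the windows (22.5 per Mb, against 8.18 per Mb in the windows of all protein-coding genes). With these regions there were 26 other pathway genes (68.4%) and 12471 of all protein-coding genes (57%). The gene alone gave 7 other pathway genes (18.4%), 5 YAP targets (27.8%), 1739 of all genes (7.95%), and 23 of the 39 regions of the table. Counting within 10 kb of an end gave 6 regions (16.7 per Mb, against 3.39 per Mb for all protein-coding genes). By that count there were 4 other pathway genes (10.5%), 3 YAP targets (16.7%) and 2226 of all genes (10.2%). The gene plus 10 kb gave 2972 of all genes, the nearest-gene rule 2780, and genes of like length 2815 of 9449. Sharing by at least 50% of both peaks gave 44.0% in replicate 1, against 27.7% over its whole list. Peaks at 0.01 or lower gave 73.9% in replicate 1 (17 of 23, 51.6% to 89.8%), against 65.7% over its whole list at that limit. In replicate 2 such peaks gave 56.9% (29 of 51, 42.2% to 70.7%), against 50.7%. No paired analysis was possible because the IgG samples were not analysed here and no test between groups was made.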

Other observations

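Peak edges often fell on restriction sites. Inside the 300-base promoter sequences of RefSeq, 24.7% of the first bases of replicate 1 peaks and 17.1% of those of replicate 2 stood exactly at an AluI cut, against 0.528% of all positions there. For MseI the shares were 6.39% and 5.65%, against 0.330%, and for HaeIII 0.699% and 0.647%, against 0.6%. The last bases had 21.8% and 15.9% at AluI, 6.42% and 5.98% at MseI and 0.305% and 1.51% at HaeIII. Per the labels' protocols AluI or HaeIII was paired with MseI, and which sample had which pair is not stated there. The Tead3 region at 28350956 began at an AluI cut in both replicates, and the replicate 1 peak over the Wwtr1 promoter ended at an MseI cut (57576103). Some edges stood at no such cut: those of replicate 1 at 105752340 and 105752433 by Tpp1, and the replicate 2 starts at 28350442 (Tead3) and 7663706 (Pcmt1). The other edges in the promoter sequences of the 9 genes, Tpp1 and Pcmt1 stood at an AluI or MseI cut. Of the 36 regions of the 9 genes with a single peak in each replicate, 15 began at the same base in the replicates and 10 ended at the same base. The same count over all regions was not made, so these are not traits of the 9 genes. The part of the cut sites in the IDR was not tested.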
